A study of Vulpes vulpes with 8 samples.

Results

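Of the genes in which inherited variants cause gum overgrowth in people, 7 were followed in the gingiva of red foxes (Vulpes vulpes): SOS1, REST, FAM20A, ANTXR2, KCNH1, ATP6V1B2 and KCNN3. They were taken by symbol from the array's annotation, as every probe set that carried that symbol alone, which gave 16 of 42924 probe sets, or 7 of 15115 named genes. Gingiva came from 5 foxes affected by hereditary hyperplastic gingivitis (HHG), in which the gum overgrows, and from 3 unaffected foxes, with 1 array per fox. Affected foxes 19, 55 and 107 were male and affected foxes 381 and 757 female; unaffected foxes 86 and 97 were male and unaffected fox 402 was female. HHG was diagnosed on early signs, red and granular gum at the tooth margin, and the labels give no genotype, age or treatment. Some pieces were taken after euthanasia in the pelting season and others from anaesthetised animals in late spring, and the labels do not say which fox belongs to which season, so season was not tested. The array was built for the dog (Affymetrix Canine 2), so fox RNA was read through dog probes. Each array is bulk tissue, in which fewer cells of a type and less RNA per cell cannot be told apart.

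In people, several of these genes act at distinct points in the cell. SOS1 loads RAS proteins with GTP downstream of growth factor receptors, and a truncating change in it underlies a form of hereditary gingival fibromatosis, as do truncating changes in REST, a repressor that silences neuronal genes outside the nervous system. FAM20A is a pseudokinase that activates the secretory kinase FAM20C, and its loss causes enamel defects with gum overgrowth. ANTXR2 is a cell surface receptor that takes part in the turnover of collagen VI, and its loss causes hyaline fibromatosis with thickened gums. KCNH1 and KCNN3, both potassium channels, and ATP6V1B2, a subunit of the proton pump that acidifies lysosomes, are the genes of Zimmermann-Laband syndrome, in which gum overgrowth is a leading sign.

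Signals are the authors' MAS5 intensities on a linear scale, and differences between groups are affected minus unaffected on the log2(signal + 16) scale, which shrinks the differences of dim probe sets. Means are given ± SD throughout, with n = 5 for affected and n = 3 for unaffected foxes. Each array has 42 probe sets against bacterial RNA, and the 95% point of their signals, taken as background, lay between 7.42 and 16.6. Probe sets were tested when their mean over the 8 arrays was outside the lowest 40%, and 12 of the 16 passed, from 5 of the 7 genes. The 4 probe sets that did not pass were those of KCNH1 and KCNN3. Tissue identity was read from fixed marker lists. All 8 annotated markers of basal and suprabasal epithelium were tested and 6 were above background on every array, as were 9 of 10 fibroblast markers and 6 of 7 endothelial markers. Markers of skeletal muscle were above background on every array for 0 of 5, and those of tooth and bone for 0 of 3.

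The 5 genes that were bright enough to be tested did not separate affected from unaffected gums. Of their 12 probe sets limma called 0 at an adjusted p under 0.05, where it called 0 of 25754 over the whole array (0%), and 0 of 12 had an unadjusted p under 0.05, against 2.69% over the array. The smallest unadjusted p among the 12 was 0.157, for a probe set of SOS1 (adjusted p = 0.99988, limma). In 0 of the 12 were the groups free of overlap, against 2.43% over the array, or 1.52% with the affected foxes lower. The differences ran from -0.47 to 0.20 with a median of -0.28, where the median over all tested probe sets was -0.037. Affected means on the log2 scale were lower for 10 of the 12, against 56.5% over the array. These 10 were all of the probe sets of SOS1, REST and FAM20A and 2 of the 3 of ATP6V1B2. Probe sets of 1 gene read the same transcripts and are not separate evidence.

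**Figure D1:**
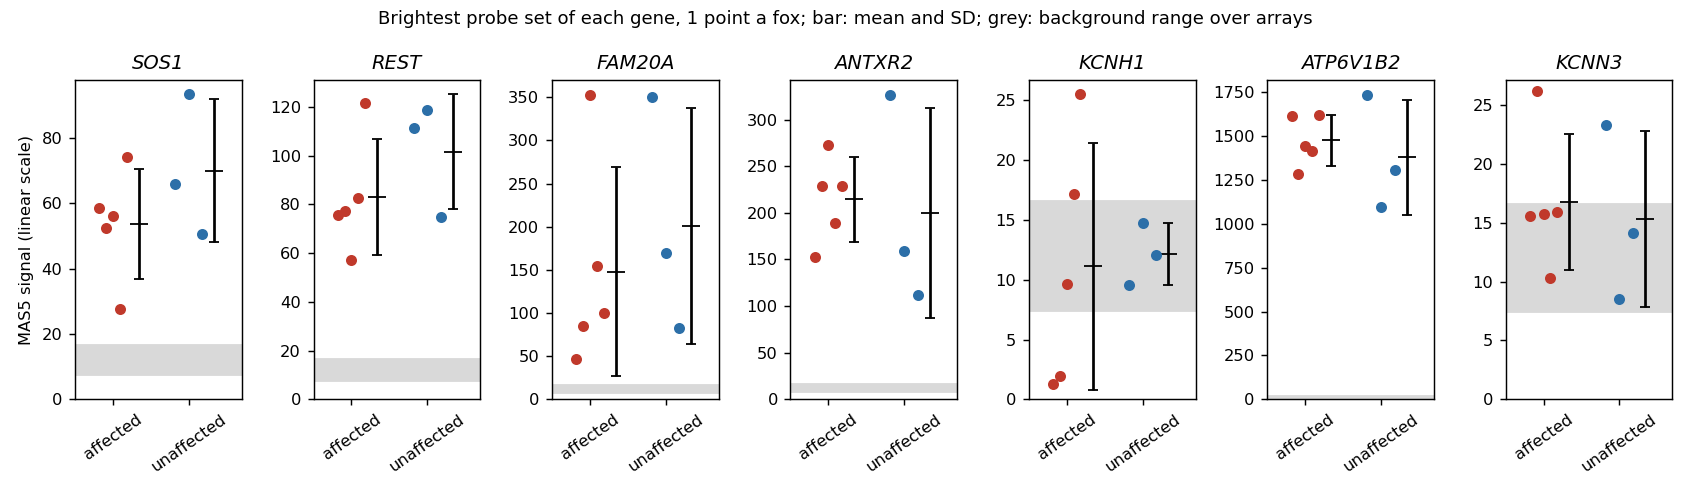
MAS5 signal (linear scale, from 0) of the probe set with the highest mean for each of the 7 genes in affected and unaffected foxes, 1 point per fox, with the mean and SD of each group and the range of background over the 8 arrays in grey. The groups overlap for every gene, and KCNH1 and KCNN3 lie at or near background.

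SOS1, the RAS activator, had 3 probe sets. The brightest read 58.4, 52.4, 55.98, 27.7 and 74.0 in affected foxes 19, 55, 107, 381 and 757, against 66.0, 93.5 and 50.5 in unaffected foxes 86, 97 and 402. Affected fox 381 was the lowest of all 8 and unaffected fox 97 the highest, and the groups overlapped. Means were 53.7 ± 16.7 in affected and 70.0 ± 21.7 in unaffected foxes. The difference was -0.31 ± 0.26 (SE), with a 95% interval from -0.88 to 0.26. The second probe set ran from 22.9 to 47.6 in affected foxes and from 40.9 to 64.5 in unaffected foxes, a difference of -0.35 ± 0.23 (SE; interval -0.86 to 0.16). The third, at background in affected fox 55, ran from 7.34 to 39.5 in affected foxes and from 17.6 to 29.3 in unaffected foxes and differed by -0.14 ± 0.26 (SE). The first and second probe sets kept a lower affected mean in every alternative tried, between -0.48 and -0.12 and between -0.49 and -0.12, while the third changed sign in 4 of 23, among them without affected fox 55 (0.023). The probe sets of SOS1 followed each other only in part over the 8 foxes: the first and second had a Pearson r of 0.84 (exact permutation p = 0.0106, adjusted over 10 pairs 0.0532) and a Spearman rho of 0.76 (exact permutation p = 0.0368, adjusted 0.0735). Without foxes 381 and 97, the farthest from the median, that r was 0.48. For the first and the third r was 0.36 (exact permutation p = 0.379, adjusted 0.379) and rho 0.48 (exact permutation p = 0.243, adjusted 0.270). For the second and the third r was 0.72 (exact permutation p = 0.0407, adjusted 0.0624) and rho 0.81 (exact permutation p = 0.0218, adjusted 0.0544). With the foxes centred within the sets of high and low actin control signal described further on, r was 0.68 for the first and second, -0.45 for the first and the third and 0.30 for the second and the third.

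The relay around SOS1, from growth factor receptor adaptors through RAS to ERK, was then read as a list. Of 22 genes listed 16 were tested, 0 were called higher or lower by limma, and 7 had higher and 9 lower affected means, with a median difference of -0.032. Over all 10824 tested genes, each by its brightest probe set, 0% were called, 54.7% had lower affected means and the median was -0.026. RASA1, which switches RAS off, averaged 1946 ± 379 in affected and 1397 ± 284 in unaffected foxes, a difference of 0.47 ± 0.21 (SE; adjusted p = 0.99988 in limma), while its other probe sets differed by -0.053 to 0.33. EGFR differed by 0.43 ± 0.36 (SE), and its other probe set by 0.15. MAP2K1, a kinase that activates ERK, averaged 491 ± 92.9 in affected and 622 ± 106 in unaffected foxes (difference -0.34 ± 0.21, SE), with other probe sets from -0.38 to 0.12. SHOC2, a scaffold that helps RAS activate RAF, averaged 418 ± 67.2 in affected and 508 ± 13.8 in unaffected foxes (difference -0.28 ± 0.18, SE), and its other probe set differed by -0.22. Over the 16 tested genes the differences ran from -0.53 (SPRED1) to 0.47 (RASA1).

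REST, the repressor of neuronal genes, had 2 probe sets. The brighter read 75.8, 77.3, 57.1, 82.7 and 121.8 in affected foxes 19, 55, 107, 381 and 757, against 111.5, 118.7 and 74.8 in unaffected foxes 86, 97 and 402. Affected fox 757 was the highest of all and affected fox 107 the lowest. Means were 82.9 ± 23.8 in affected and 101.7 ± 23.6 in unaffected foxes, a difference of -0.26 ± 0.23 (SE; interval -0.77 to 0.25). The dimmer probe set ran from 12.95 to 42.4 in affected foxes and from 13.7 to 65.6 in unaffected foxes and differed by -0.32 ± 0.35 (SE), or by -0.0041 without unaffected fox 86 and -0.73 without unaffected fox 402 (unadjusted p = 0.0465, adjusted p = 0.994, limma). The brighter one ran from -0.44 without unaffected fox 402 to -0.15 without unaffected fox 97. Over the 8 foxes the pair had a Pearson r of 0.53 (exact permutation p = 0.179, adjusted over 10 pairs 0.223) and a Spearman rho of 0.52 (exact permutation p = 0.197, adjusted 0.246), and r was 0.36 without foxes 757 and 97 and 0.26 within the actin sets.

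The sign of the difference turned between the sexes for REST and for several other members, with few foxes in each sex. The 1 unaffected female, fox 402, is also the only unaffected fox of low actin control signal, described further on. Sex and actin signal therefore cannot be told apart in these turns. In males the brighter REST probe set read 75.8, 77.3 and 57.1 in the 3 affected foxes, against 111.5 and 118.7 in the 2 unaffected foxes, a difference of -0.62 with no overlap. In females it read 82.7 and 121.8 in the 2 affected foxes, against 74.8 in the 1 unaffected fox, a difference of 0.36. In a fit of the males alone the unadjusted p was 0.0394 and the adjusted p 0.999 (limma). The disease effect in males minus that in females was -0.98 ± 0.42 (SE; unadjusted p = 0.0491), and it did not pass adjustment (adjusted p = 0.99995, limma). With 1 unaffected female, that SE assumes that this fox varies like the foxes of the other groups. The dimmer REST probe set differed by -0.70 in males and 0.47 in females. The FAM20A probe sets differed by -0.97, -0.71 and -0.53 in males and by 0.51, 0.36 and 0.20 in females. ANTXR2 differed by -0.10 in males and 0.81 in females, the third SOS1 probe set by -0.31 and 0.19, and the second of ATP6V1B2 by 0.027 and -0.23. For the brightest FAM20A probe set the effect in males minus that in females was -1.48 ± 1.15 (SE; unadjusted p = 0.236, adjusted p = 0.99995, limma), a larger difference than that of REST with a wider error. Of the 12 probe sets, 3 were lower in every affected male than in every unaffected male, both of REST and the brightest of SOS1, against 10.7% over the array. By the interaction limma called 0 of the 12, against 0% of the array, and 1 of the 12 had an unadjusted p under 0.05, against 2.48%. For males against females it called 0 of the 12, against 0.00388% of the array, and 0 of the 12 had an unadjusted p under 0.05, against 2.29%.

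Partners and targets of REST were read next. Of 14 genes for its corepressors and its turnover 12 were tested, 0 were called, and 5 had higher and 7 lower affected means, with a median of -0.030. BTRC, the ubiquitin ligase subunit that marks REST for destruction, averaged 129 ± 34.1 in affected and 96.9 ± 26.9 in unaffected foxes, a difference of 0.36 ± 0.23 (SE). KDM1A differed by 0.20 ± 0.21 (SE), and its other probe set by 0.041. RCOR1, the corepressor that REST recruits, averaged 42.8 ± 8.36 in affected and 52.6 ± 16.8 in unaffected foxes (difference -0.21 ± 0.20, SE), and SIN3A, which binds the other end of REST, 43.3 ± 13.7 in affected and 58.8 ± 23.4 in unaffected foxes (difference -0.31 ± 0.27, SE). Of 18 neuronal genes that REST represses, 16 were annotated and only 7 were bright enough to be tested. Among these 7, 0 were called, 5 had higher and 2 lower affected means, and the median difference was 0.083. CHGA, a granule protein of neuroendocrine cells, ran from 24.1 to 44.0 in affected foxes and from 5.52 to 35.8 in unaffected foxes, where 1 of 3 was at background (difference 0.45 ± 0.29, SE). SNAP25, a synaptic fusion protein, was above background in 3 of 5 affected and 2 of 3 unaffected foxes. Lower in affected foxes were SCG3, by -0.31 ± 0.36 (SE), and STMN3, by -0.055 ± 0.22 (SE). L1CAM and CPLX1 were at background on all 8 arrays.

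FAM20A, the pseudokinase, had the largest SD over the foxes of the 7 genes on the log2(signal + 16) scale, and it varied within each group. Its brightest probe set read 47.3, 85.3, 353.1, 154.8 and 100.3 in affected foxes 19, 55, 107, 381 and 757, against 350.2, 169.2 and 82.8 in unaffected foxes 86, 97 and 402. The highest affected and the highest unaffected fox had nearly equal signals, and the lowest fox was affected. From lowest to highest the signal spanned 7.46-fold, less than the 10.5-fold to 19.3-fold of the KCNH1 probe sets near background. Its SD over the foxes, 0.91 on the log2(signal + 16) scale, was larger than that of 97.8% of the tested probe sets. Means were 148 ± 121 in affected and 201 ± 136 in unaffected foxes. The difference was -0.47 ± 0.56 (SE; interval -1.71 to 0.77), or 0.010 without unaffected fox 86 and -0.93 without unaffected fox 402.

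The other FAM20A probe sets were dimmer. The second read 72.1 in affected fox 107 and from 15.96 to 41.9 in the other affected foxes, against 81.5, 40.3 and 19.6 in unaffected foxes 86, 97 and 402. It followed the first over the 8 foxes with a Pearson r of 0.97 (exact permutation p = 0.000347, adjusted over 10 pairs 0.00347) and a Spearman rho of 0.93 (exact permutation p = 0.00223, adjusted 0.0223), and r was 0.90 without foxes 107 and 86 and 0.96 within the actin sets. Of the 10 pairs of probe sets that share a gene, this was the only one past 0.05 after adjustment. The third, dim and at background in affected fox 55, ran from 13.5 to 33.1 in affected foxes and from 11.8 to 37.1 in unaffected foxes and had a Pearson r of 0.82 with the first (exact permutation p = 0.0164, adjusted 0.0548) and a Spearman rho of 0.83 (exact permutation p = 0.0154, adjusted 0.0544). That r was 0.65 without foxes 107 and 86 and 0.61 within the actin sets. The second and the third probe sets differed between the groups by -0.36 ± 0.41 and -0.29 ± 0.26 (SE), and the second by 0.020 without unaffected fox 86 and -0.71 without unaffected fox 402. Without unaffected fox 402 the third differed by -0.58 (unadjusted p = 0.0406, adjusted p = 0.994, limma), and without unaffected fox 97 by -0.12.

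ANTXR2, the collagen VI receptor, had 1 probe set, with a slightly higher affected mean. It read 152.5, 228.6, 273.1, 189.4 and 228.9 in affected foxes 19, 55, 107, 381 and 757, against 326.8, 159.6 and 112.2 in unaffected foxes 86, 97 and 402. The highest and the lowest of all 8 values were both unaffected. Means were 214.5 ± 45.6 in affected and 199.5 ± 113 in unaffected foxes, a difference of 0.20 ± 0.31 (SE; interval -0.49 to 0.89). It was 0.60 without unaffected fox 86 (unadjusted p = 0.0412, adjusted p = 0.955, limma), -0.11 without unaffected fox 402 and -0.10 in males alone.

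**Figure D2:**
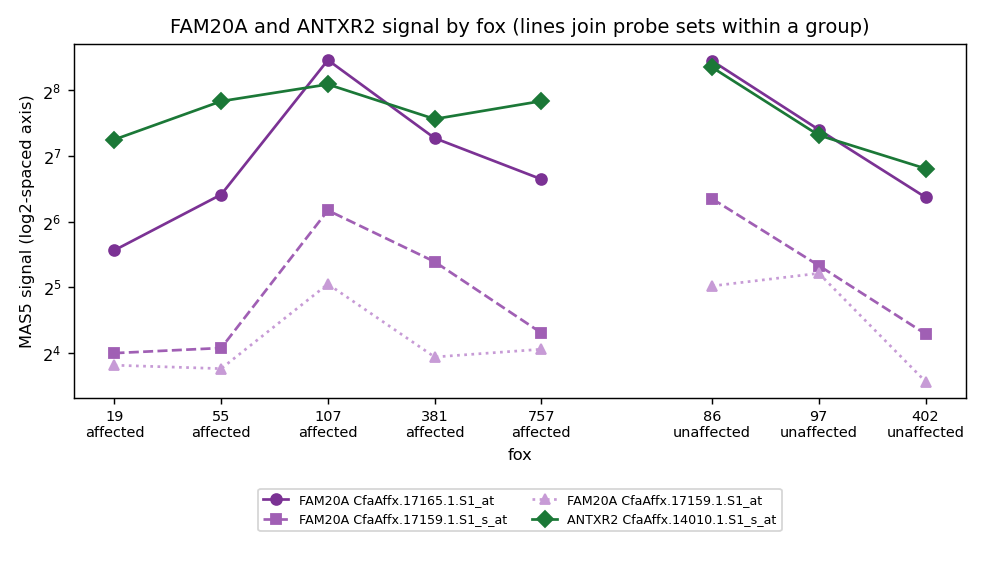
MAS5 signal (axis spaced in log2) of the 3 FAM20A probe sets and the ANTXR2 probe set in each fox, affected foxes on the left and unaffected foxes on the right; lines only join the values of 1 probe set within a group. Affected fox 107 and unaffected fox 86 are the highest of their groups for the 2 brighter FAM20A probe sets and for ANTXR2.

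Fibroblast markers were read beside these signals, and their relation to FAM20A or ANTXR2 over the foxes was not tested. A fibroblast score, the mean of the tested fibroblast markers' log2 values centred over the 8 foxes, ran from -0.76 to 0.50 in affected foxes and from -0.69 to 0.87 in unaffected foxes, and was highest in its group in affected fox 107 and unaffected fox 86. In unaffected fox 86 (score 0.87) and affected foxes 107 (0.50), 757 (0.47) and 381 (0.17) ANTXR2 read 326.8, 273.1, 228.9 and 189.4. In affected fox 19 (-0.27) and unaffected foxes 97 (-0.29) and 402 (-0.69) it read 152.5, 159.6 and 112.2. Affected fox 55 had the lowest score, -0.76, and read 228.6. The summed signal of all 10 fibroblast markers ran from 10358 to 28004 in affected foxes and from 8547 to 31548 in unaffected foxes, with 0 of the 10 at background on all arrays. A cornified layer score made in the same way ran from -0.87 to 0.97 in affected foxes and from -1.85 to 0.36 in unaffected foxes, lowest in unaffected fox 86 and highest in affected fox 19. The summed signal of the 6 annotated cornified markers ran from 6354 to 12889 in affected foxes and from 1824 to 11696 in unaffected foxes, with 0 of 6 at background on all arrays. All 6 had higher affected means (median difference 0.63), and 0 were called. With the fibroblast score as a covariate the differences were -0.53 for FAM20A and 0.17 for ANTXR2, and with the cornified score -0.13 and 0.49. Tissue make-up as the source of the spread between foxes was not tested.

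Over the 8 foxes FAM20A and ANTXR2, each by its brightest probe set, had a Pearson r of 0.69 (exact permutation p = 0.0585, adjusted over 10 pairs of genes 0.585) and a Spearman rho of 0.74 (exact permutation p = 0.0458, adjusted 0.458). Within the actin sets r was 0.50. Without foxes 107 and 86, the farthest from the median of FAM20A, it was 0.19. Leaving out extreme foxes narrows the range, which can by itself lower r. Among all 10 pairs of the 5 tested genes, 0 passed after adjustment.

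Around FAM20A, the list of its kinase relatives and of enamel and mineral matrix genes had 7 of 15 genes tested, 0 called, and 7 with higher affected means, with a median of 0.23. FAM20C, the kinase that FAM20A activates, differed by 0.23 ± 0.19 (SE), and FAM20B, a kinase of proteoglycan linkers, by 0.20 ± 0.24 (SE); both were singled out after their values were seen. SPP1 (osteopontin) read 1190, 310, 3614, 652 and 924 in affected foxes 19, 55, 107, 381 and 757, against 1946, 83.9 and 82.5 in unaffected foxes 86, 97 and 402, a difference of 1.87 ± 1.01 (SE; unadjusted p = 0.0958, adjusted p = 0.99988, limma). Its groups overlapped through unaffected fox 86 alone, and its other probe set differed by 1.68. IBSP, another bone matrix protein, was above background in 4 of 5 affected foxes and 1 of 3 unaffected foxes (difference 0.49 ± 0.36, SE). MEPE was at background on all arrays.

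Around ANTXR2, 11 of 15 genes for its paralog ANTXR1, collagen VI and basement membrane were tested, 0 were called, and 8 had higher and 3 lower affected means, with a median of 0.11. ANTXR1 averaged 21.6 ± 10.4 in affected and 15.0 ± 7.70 in unaffected foxes, close to background (difference 0.27 ± 0.25, SE). LAMB1, a laminin chain, differed by 0.19 ± 0.22 (SE), and its 5 other probe sets by 0.046 to 0.31. MMP14, a membrane-bound collagenase, averaged 35.3 ± 10.6 in affected and 46.7 ± 9.30 in unaffected foxes (difference -0.31 ± 0.22, SE), and NID1, which links laminin to collagen IV, differed by -0.35 ± 0.32 (SE).

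The genes of Zimmermann-Laband syndrome differed in how well they were detected. ATP6V1B2, the proton pump subunit, was bright on all 8 arrays in each of 3 probe sets. The brightest read 1616, 1284, 1442, 1418 and 1619 in affected foxes 19, 55, 107, 381 and 757, against 1735, 1094 and 1309 in unaffected foxes 86, 97 and 402. Unaffected foxes held both the highest and the lowest value. Means were 1476 ± 143 in affected and 1380 ± 326 in unaffected foxes, a difference of 0.12 ± 0.19 (SE; interval -0.30 to 0.54), or -0.036 without unaffected fox 97. The second ran from 1001 to 1221 in affected foxes and from 968 to 1314 in unaffected foxes and spanned 1.36-fold over all foxes, with with a difference of -0.056 ± 0.17 (SE; interval -0.43 to 0.32). The third ran from 405 to 833 in affected foxes and from 490 to 701 in unaffected foxes, a difference of -0.041 ± 0.25 (SE; interval -0.60 to 0.51). Every one of the 3 intervals holds 0 and none goes beyond -0.60 or 0.54.

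The other subunits of that proton pump were mostly bright as well. Of 24 genes listed 17 were tested, 0 were called, and 12 had higher and 5 lower affected means, with a median of 0.095. ATP6V1D, a subunit of the central stalk, read from 1540 to 2888 in affected foxes and from 1215 to 1722 in unaffected foxes, averaging 2180 ± 577 in affected and 1430 ± 262 in unaffected foxes. Its difference was 0.58 ± 0.24 (SE; unadjusted p = 0.0381, adjusted p = 0.99988, limma), and its other probe set differed by 0.22. It was the only one of the 17 with an unadjusted p under 0.05, against 2.54% of all genes. ATP6V0B, of the membrane ring, differed by 0.25 ± 0.20 (SE) and ATP6V0A2, of the membrane arm, by -0.29 ± 0.20 (SE). ATP6V1G3 and ATP6V0A4 were at background on all 8 arrays.

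KCNH1, a voltage-gated potassium channel, had 3 probe sets and lay near background. The first read 1.32, 1.97, 9.68, 17.2 and 25.5 in affected foxes 19, 55, 107, 381 and 757, against 9.59, 14.8 and 12.1 in unaffected foxes 86, 97 and 402, and was above background in 2 of 5 affected and 2 of 3 unaffected foxes. The second was above background in 1 of 5 affected and 1 of 3 unaffected foxes, and the third in 1 of 5 affected and 0 of 3 unaffected foxes. The probe sets did not point to the same foxes: affected fox 19 read 20.5 on the second and 1.32 on the first. Fitted without the filter on dim probe sets, the 3 differed by -0.13 ± 0.29, 0.20 ± 0.29 and -0.0055 ± 0.20 (SE; adjusted p = 0.99995 each, limma).

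KCNN3, a potassium channel opened by calcium, had 1 probe set just under the mean signal needed for testing. It read 15.6, 26.2, 15.7, 10.3 and 15.9 in affected foxes 19, 55, 107, 381 and 757, against 23.3, 8.51 and 14.1 in unaffected foxes 86, 97 and 402. It was above background in 4 of 5 affected and 2 of 3 unaffected foxes. Fitted without the filter it differed by 0.075 ± 0.20 (SE; interval -0.38 to 0.53). Of 16 related genes, other channels of the families of KCNH1 and KCNN3 and the calmodulins that gate them, 6 were tested and 0 were called (4 higher and 2 lower affected means, median 0.093). KCNN4, the calcium-activated channel of blood and epithelial cells, averaged 57.2 ± 25.96 in affected and 36.2 ± 19.1 in unaffected foxes, a difference of 0.48 ± 0.33 (SE). KCNH2, a paralog of KCNH1, averaged 43.5 ± 14.3 in affected and 48.4 ± 2.80 in unaffected foxes (difference -0.15 ± 0.22, SE), and CALM3 differed by 0.20 ± 0.20 (SE). KCNH4 and KCNH6 were at background on all arrays.

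**Figure D3:**
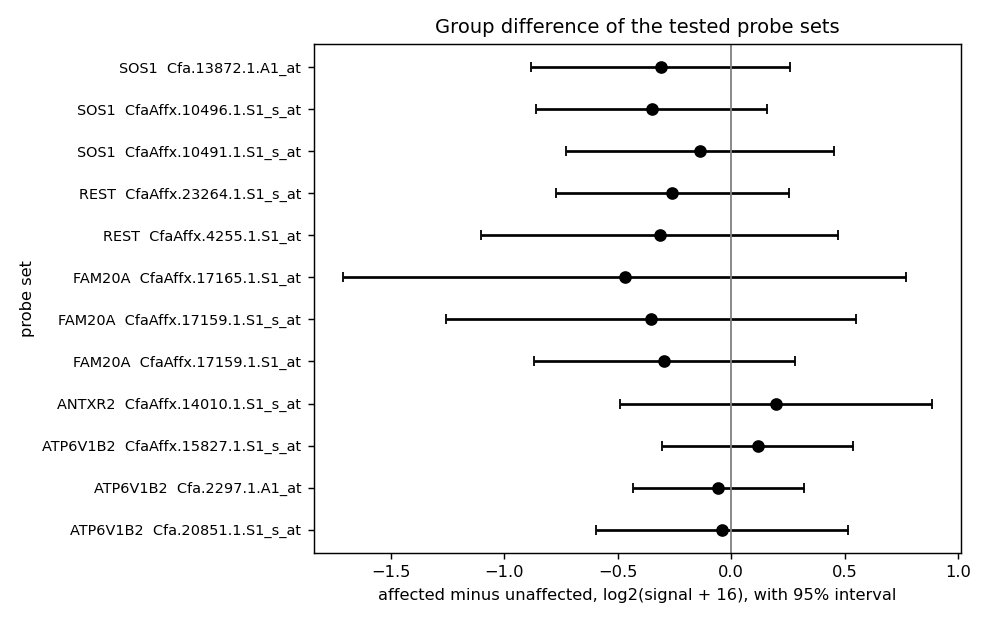
Affected minus unaffected difference on the log2(signal + 16) scale of the 12 tested probe sets (points) with 95% intervals from limma (bars). Every interval holds 0, and those of FAM20A reach farthest, from -1.71 to 0.77 for its brightest probe set.

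Other genes tied to gum overgrowth or inherited gum disease were read last. Of 15 listed 6 were tested and 0 were called, with 3 higher and 3 lower affected means, a median of 0.0044 and a range from -0.17 to 0.15. CTSC, the protease lost in Papillon-Lefevre syndrome, averaged 1269 ± 464 in affected and 1222 ± 744 in unaffected foxes. GNPTAB, the enzyme that tags lysosomal proteins and is lost in mucolipidosis, differed by -0.17 ± 0.23 (SE), LYST, a lysosomal trafficking protein, by 0.15 ± 0.18 (SE) and TSC2, a brake on mTOR, by -0.078 ± 0.22 (SE). TBC1D24 and ELANE were at background on all arrays.

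**Figure D4:**
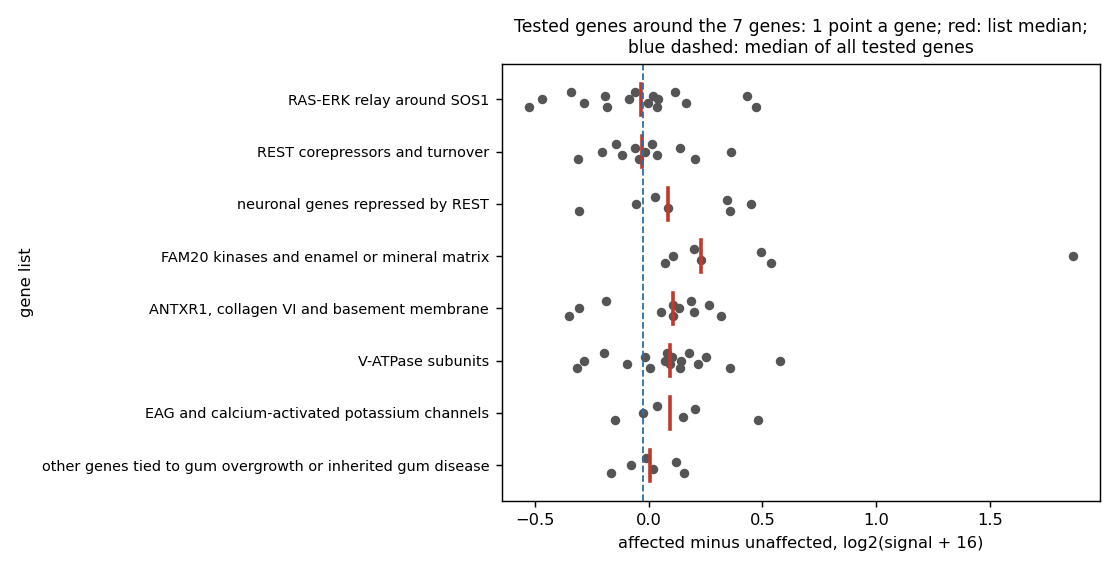
Affected minus unaffected difference on the log2(signal + 16) scale of the tested genes in the 8 lists around the 7 genes, 1 point per gene, with each list's median in red and the median over all tested genes (-0.026) as a dashed blue line. List medians lie between -0.032 and 0.23, and SPP1 at 1.87 stands far to the right.

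A sign of RNA quality moved with several of the dimmer signals of these genes. The array's 5' actin control read from 7831 to 8868 in affected foxes 107 and 757 and unaffected foxes 86 and 97, and from 1354 to 2336 in affected foxes 19, 55 and 381 and unaffected fox 402. On the log2 scale, the 5' over 3' actin signal averaged -1.77 ± 1.02 in affected and -1.08 ± 0.65 in unaffected foxes (SD, n = 3; two-sided exact permutation p = 0.321 over 56 splits, where the smallest possible is 0.0179). Of the 12 probe sets 4 were higher in every fox of the high actin set than in every fox of the low one, against 5.27% over the array. None of the 4 was the brightest of its gene, and the brightest probe set of each tested gene overlapped between the sets. SOS1 read from 42.2 to 64.5 in the high set and from 22.9 to 40.9 in the low set on its second probe set, and from 25.5 to 39.5 in the high set and from 7.34 to 19.6 in the low set on the third. The dimmer REST probe set read from 38.9 to 65.6 in the high set and from 12.95 to 31.0 in the low set, and the dimmest of FAM20A from 16.6 to 37.1 in the high set and from 11.8 to 15.3 in the low set. In a fit with disease and the actin ratio as terms, limma called 0 of the 12 for the ratio, against 0.00388% of the array, and 4 of the 12 had an unadjusted p under 0.05, against 13.2%. They were the same 4 probe sets.

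**Figure D5:**
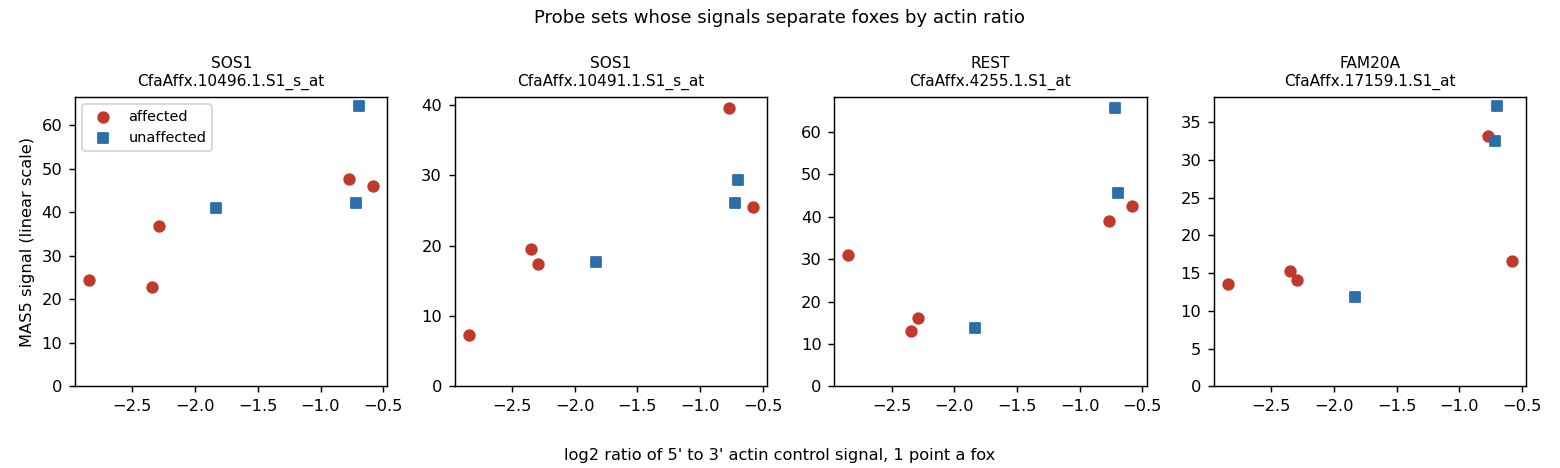
MAS5 signal (linear scale, from 0) of the 4 probe sets that separated the foxes by actin, against the log2 of 5' over 3' actin control signal, 1 point per fox. Foxes with a ratio from -0.77 to -0.58 lie above those from -2.84 to -1.83 in each panel, and both sets hold affected and unaffected foxes.

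Read within the sets, the REST and FAM20A differences did not keep their sign. The 1 unaffected fox of the low set, fox 402, is also the only unaffected female. These turns and those between the sexes therefore cannot be told apart. The brighter REST probe set differed by -0.38 between the 2 affected and 2 unaffected foxes of the high set and by 0.059 between the 3 affected foxes and the 1 unaffected fox of the low set. The brightest FAM20A probe set differed by -0.33 and 0.061, and the brightest of SOS1 by -0.24 and -0.14. ANTXR2 differed by 0.12 and 0.67, and the brightest probe set of ATP6V1B2 by 0.15 and 0.13. With the actin ratio as a covariate the differences were -0.14 for SOS1, -0.17 for REST, -0.052 for FAM20A, 0.38 for ANTXR2 and 0.16 for ATP6V1B2. The part of RNA quality in the differences between the groups was not tested further.

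The genes whose log2 signal followed each member most closely over the 8 foxes were taken from 10493 named genes. They are the highest of many and therefore carry no test. For SOS1 they were LASP1, an actin-binding protein (Pearson r = 0.99), ABCF2 (0.96) and TAF1C, a factor of RNA polymerase I (0.95). For REST they were WBP1L (0.97), FHL5 (0.96) and HBE1, a globin (0.95). FAM20A was followed by EXOSC1, a subunit of the RNA exosome (0.94), PDGFD, a growth factor for mesenchymal cells (0.94), and SPACA4 (0.93). ANTXR2 was followed by LPAR1, a receptor for lysophosphatidic acid (0.98), PRKAR1A, a regulatory subunit of protein kinase A (0.98), and OLFML1 (0.97). LPAR1 read 54.5, 80.9, 91.6, 63.4 and 91.7 in affected foxes 19, 55, 107, 381 and 757, against 116.5, 50.6 and 38.4 in unaffected foxes 86, 97 and 402, the same extremes as ANTXR2. ATP6V1B2 was followed by MRC1, the mannose receptor of macrophages (0.96), ALDH1L2, a mitochondrial folate enzyme (0.93), and SAR1B, a GTPase of secretory vesicles (0.93). The summed signal of all 9 macrophage markers, MRC1 among them, ran from 1169 to 3380 in affected foxes and from 1270 to 3745 in unaffected foxes, with 0 of 9 at background on all arrays. Of the 8 that were tested, 7 had higher and 1 lower affected means (median difference 0.29), and 0 were called. The part of the macrophage markers in the ATP6V1B2 signal was not tested.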

How the data were processed

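Gingival RNA of 8 foxes (5 affected, 3 unaffected) was hybridised to Affymetrix Canine 2 arrays. The deposited values are linear intensities made by the authors with MAS5, per the submitters' processing notes; the sources used here give no version, target value or detection call, and the mean trimmed by 2% at each end is 150.0 on every array. Of 42924 probe sets other than the 111 controls, the platform annotation gave 1 symbol for 29254, several for 439, and 13231 were unnamed here. Signals entered the tests as log2(signal + 16), and arrays were not scaled again. Dropping the dimmest 40% (mean signal under about 17.1) left 25754 probe sets. Groups were compared with limma 3.58.1 in R 4.3.3 (lmFit, eBayes, Benjamini-Hochberg over all tested probe sets, threshold 0.05). The fit was also run on simulated data with changes larger than those of the members. That run cannot show how often differences of the members' size would be found. The probe set with the highest mean stands for a gene. From each list, up to 2 genes per direction with the smallest p could be named, and for likeness the 3 genes with the highest Pearson r. Correlations and the actin ratio were tested by exact permutation (scipy 1.17.1). Nothing says how the foxes are related, and the p-values treat them as independent, which was not tested. The 8 arrays limit the precision (median standard error 0.23 on the log2 scale). Members, lists, actin sets and alternatives were chosen with earlier results of these data known. Each fox has its own number and the labels name no pairs, so no pairing was used. Alternatives covered offset, normalization, filter, sex, array weights, prior, covariates and each fox left out. No sequence of these genes was used here.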

Additional observations from a re-analysis of the deposited data

Results flagged for a closer look

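In the affected group, 2 of the 16 probe sets held 1 fox far from the other 4. The dimmest FAM20A probe set read 33.1 in affected fox 107 and from 13.5 to 16.6 in the other affected foxes, while unaffected foxes 86 and 97 read 32.5 and 37.1. A KCNH1 probe set read 13.9 in affected fox 757, its only value above background, and from 1.32 to 4.13 in the other affected foxes. Chance flags about 1 in 20 groups.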

How the results depend on the processing

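Under 22 alternatives to the comparison of affected with unaffected foxes, limma called 0 probe sets in all and 0 of the 7 genes', and the smallest adjusted p of a member stayed between 0.827 and 0.999997. Sex and its interaction also gave 0 member calls under both alternatives tried. Of 281 values for the 12 differences, 256 kept their direction and 25 turned. The third SOS1 probe set gave 0.011 with array weights, 0.12 with the actin covariate and 0.14 within the high actin set. Within the low actin set the REST probe sets gave 0.059 and 0.25 and those of FAM20A 0.061, 0.15 and 0.12; with array weights the brightest of FAM20A gave 0.013. In males ANTXR2 gave -0.10 and the second ATP6V1B2 probe set 0.027, and the second gave 0.061 within the high set. The third of ATP6V1B2 gave 0.019 with array weights, 0.029 with the actin covariate, 0.014 with the cornified covariate and 0.15 within the high set. The cause of these turns was not tested.

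Leaving out 1 fox, the third SOS1 probe set ran from -0.29 to 0.023, FAM20A from -0.93 to 0.010 (brightest) and from -0.71 to 0.020 (second probe set) and from -0.58 to -0.12 (the third), REST from -0.44 to -0.15 (brighter) and from -0.73 to -0.0041 (dimmer), ANTXR2 from -0.11 to 0.60, and ATP6V1B2 from -0.036 to 0.29, -0.17 to 0.046 and -0.21 to 0.098. The actin difference ran from -1.06 to -0.41. No paired analysis was made because the labels name no pairs of foxes.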
